A study of Mus musculus with 48 samples.

Results

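The genes that write, read and erase methyl marks on cytosine were examined in blood and in the medial prefrontal cortex (mPFC) of mice after removal of the ovaries, after chronic ultra-mild stress (CUMS), and after both. The set holds 9 genes: the DNA methyltransferases Dnmt1, Dnmt3a and Dnmt3b, the methyl-CpG binding genes Mbd1 and Mbd2, the dioxygenases Tet1, Tet2 and Tet3, and the demethylation adaptor Gadd45b. All 19 probes that carry one of these gene names were taken, out of 55681 probes on the array. Each of the 24 mice was a female C57BL/6J mouse of 17 weeks and gave 1 blood array and 1 mPFC array. The 4 groups of 6 mice were sham-operated without stress (control), sham-operated with CUMS (CUMS), bilaterally ovariectomized without stress (OVX), and bilaterally ovariectomized with CUMS (OVX+CUMS). The blood RNA came from the pellet of heparinized blood, so it mixes red cells, white cells and platelets, and the cortex RNA mixes neurons and glia. In such bulk samples, fewer cells of a type and less RNA per cell cannot be told apart.

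Cytosine methylation is laid down by de novo enzymes of the Dnmt3 family and copied to the new strand after replication by Dnmt1. Proteins with a methyl-CpG binding domain, such as Mbd1 and Mbd2, bind the methylated sites and recruit repressive complexes. Tet enzymes oxidize the methyl group as a step toward its removal, and Gadd45b, a stress-responsive gene of the DNA damage family, takes part in activity-dependent demethylation in neurons. Dnmt3a is the de novo enzyme of the mature brain, and mutations of Dnmt3a and Tet2 are known from blood stem cells.

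The probes are single strands of 60 bases, and 3 of those that carry the changes described below are shown in lower case as they lie on the array, because their place in the transcript decides which RNA forms they can report. Positions are those of the array annotation on mouse build mm9.

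Dnmt1 A_51_P195573: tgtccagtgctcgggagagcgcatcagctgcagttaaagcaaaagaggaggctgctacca

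Dnmt3b A_55_P1975903: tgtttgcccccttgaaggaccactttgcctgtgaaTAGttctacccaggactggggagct

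Tet3 A_55_P2175260: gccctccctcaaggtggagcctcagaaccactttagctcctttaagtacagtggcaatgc

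The Dnmt1 probe lies at chr9:20711973-20712341 on the minus strand, and its 60 bases are spread over 369 bases of genome, so it joins sequence from either side of an intron. The Dnmt3b probe lies at chr2:153512098-153512157 on the plus strand. The capitals mark the TAG stop codon of the Dnmt3b reading frame, which starts at base 36 of the probe counted from its 5′ end and leaves 22 bases beyond it. The other Dnmt3b probes, A_55_P2008874 and A_55_P2130535, start 893 and 1305 bases further downstream. The Tet3 probe lies at chr6:83319720-83319779 on the minus strand. A Tet1 probe described below, A_51_P512172, lies at chr10:62276042-62276101 on the same strand and is not printed.

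Levels are given as log2 of the processed intensity minus the 75th percentile of the same array, so 0 is that percentile. A probe was called detected in a tissue when it was above background on all 24 arrays and exceeded an intensity of 50 on at least 2. This held for 15 of the 19 probes in blood and 15 in mPFC, with 13 detected in both, against 20748 and 28353 of all probes. The 75th percentile itself lay between 572 and 689 on the mPFC arrays and between 54.9 and 192 on those of blood, where it moved with the groups, from a mean of 86.3 in CUMS mice to 144 in OVX mice. The arrays of each tissue lay on 3 slides: all 6 control arrays shared slide 1 with 2 of the CUMS arrays, the 4 remaining CUMS arrays shared slide 2 with 4 OVX arrays, and the 2 remaining OVX arrays shared slide 3 with all 6 from OVX+CUMS mice. Blood and mPFC were never on the same slide. Some marker genes were detected only in the tissue of their label. The neuronal genes Rbfox3, Slc17a7 and Stmn2 had median intensities of 4.08, 3.64 and 2.35 in blood and 37849, 6035 and 52681 in mPFC. The B cell gene Ms4a1 stood at 5252 in blood and 4.19 in mPFC. Others were detected in both tissues. The neuronal markers detected in blood, Snap25, Nrgn and Gad1, stood at 16081, 4155 and 174 there and at 55259, 20245 and 9109 in mPFC. The B cell genes Cd79a and Cd79b stood at 3982 and 15141 in blood and at 90.2 and 48.8 in mPFC. The T cell gene Cd4 was at 3601 in blood and 3211 in mPFC. Hba-a1, an alpha globin gene, was at 571439 in blood and at 11371 in mPFC. Nothing in the labels ties mice of different groups to each other. In the fits over all mice, p-values rest on the spread between mice within groups, pooled over the 4 groups and moderated over all detected probes. For the CUMS and OVX groups this spread includes any difference between slides. P-values for differences between tissues rest on the spread of the differences within mice.

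The clearest contrast was between tissues, and the de novo methyltransferases went opposite ways in it. Over all probes detected in both tissues, the median absolute difference was 1.67. Dnmt3a was 2.89 lower in blood than in mPFC of the same mouse on the log2 scale (SE 0.05, adjusted p = 3.5e-27). Its level over the 24 mice was -0.12 ± 0.26 (SD) in blood and 2.77 ± 0.12 in mPFC. Dnmt3b went the other way: probe A_55_P1975903 was 6.38 higher in blood (SE 0.07, adjusted p = 1.7e-30), with a level of 3.45 ± 0.58 in blood and -2.92 ± 0.25 in mPFC. The Dnmt3b probe A_55_P2130535 was 2.84 higher in blood (SE 0.07), with a level of -0.34 ± 0.37 in blood and -3.18 ± 0.17 in mPFC. The third Dnmt3b probe, A_55_P2008874, had a level of -0.38 ± 0.31 in blood and was not detected in mPFC. Both thus lay well below A_55_P1975903 in blood. Dnmt1, the maintenance enzyme, differed by 0.10 with a 95% interval of -0.02 to 0.22, which did not pass the threshold.

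Among the readers, both Mbd2 probes were higher in blood, by 1.72 (SE 0.04) for A_55_P2036526 and by 1.20 (SE 0.05) for A_66_P133043. Mbd1 had a level of 1.11 ± 0.32 in blood and 1.10 ± 0.06 in mPFC, and the 95% interval of its difference was -0.09 to 0.10. Among the erasers, Tet3 A_55_P2175260 was 1.5 higher in blood (SE 0.06). Tet2 was lower in blood with both probes that could be compared, by a log2 difference of -0.86 (SE 0.07) for A_55_P2051405 and -0.79 (SE 0.07) for A_55_P2081303. Gadd45b was lower in blood by a log2 difference of -0.33 (SE 0.08). The Tet1 probes disagreed: A_51_P512172 was 2.68 higher in blood (SE 0.09), and A_55_P2122997 was lower in blood, with a log2 difference of -1.41 (SE 0.07).

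In all, 11 of 13 probes differed between the tissues, 6 higher in blood and 5 lower, where 96.3% of the 17529 probes detected in both tissues passed the same test, 54.6% higher and 41.7% lower. Tissue and slide cannot be told apart here. Aligning the arrays on the spike-in RNA instead of the 75th percentile lowered blood against mPFC for each of the 13 probes, and A_66_P133043 of Mbd2 then had a log2 difference of -0.18, Dnmt1 of -1.28 and Mbd1 of -1.38. Tet3 A_55_P2175260 then differed by 0.12 and no longer passed, whereas Dnmt3b A_55_P1975903 stayed 4.99 higher in blood and Dnmt3a had a difference of -4.27. With this alignment 4 of the 13 were called higher in blood and 8 lower, beside 5929 and 10707 of all 17529 probes.

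Ovariectomy in blood was tested as the mean of the OVX and OVX+CUMS mice minus the mean of the control and CUMS mice. With it, 11 of the 15 detected probes passed, 7 higher and 4 lower. Of all 20748 probes detected in blood, 55.1% passed this test, 27.4% higher and 27.7% lower. The median difference was 0.07 over the 15 probes and 0.04 over all probes. No probe of any gene passed for ovariectomy in blood with slide as a block, though 10 of the 11 called probes had the same sign there. Aligned on the spike-in RNA, the median over all probes moved to 0.19, and 6 of the 15 passed, 4 higher and 2 lower. Of all 20748 probes, 3308 were then called higher and 2687 lower.

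The largest fall was that of Dnmt3b. In blood, probe A_55_P1975903 had a lowest, median and highest level of 3.70, 4.0 and 4.26 in control mice and of 3.21, 3.41 and 4.81 in CUMS mice. In OVX mice these were 2.48, 2.76 and 2.99, and in OVX+CUMS mice 3.25, 3.30 and 3.70. The OVX mice thus lay below every mouse of the other 3 groups, and the OVX+CUMS mice lay below the control mice and overlapped the CUMS mice. The ovariectomy effect was -0.77 (SE 0.14, 95% interval -1.06 to -0.48, adjusted p = 0.00028). Without stress, the difference between OVX and control mice was -1.25 (SE 0.20, adjusted p = 0.00023), in a comparison that 27.1% of all detected probes passed. OVX+CUMS mice exceeded OVX mice by 0.67 (SE 0.20, adjusted p = 0.026), where 21.2% of all passed. The effect with slide as a block was -0.19 (SE 0.21, adjusted p = 0.91).

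Among the erasers in blood, Tet3 and Tet1 fell. Tet3 A_55_P2175260 had a median of 0.71 in control mice (range 0.33 to 0.97), 0.71 in CUMS mice (range 0.27 to 1.05), 0.07 in OVX mice (range -0.38 to 0.36) and 0.42 in OVX+CUMS mice (range 0.23 to 0.75). The OVX mice were the low group, and their range overlapped the lowest values of the other groups. The effect of ovariectomy was -0.42 (SE 0.10, adjusted p = 0.0022). It was -0.17 after normexp background correction, -0.27 with alignment on the spike-in RNA and -0.43 (SE 0.22) with slide as a block, and passed with none of them. Tet1 A_51_P512172 had a median of 0.81 in control mice (range 0.40 to 1.27), 1.22 in CUMS mice (range 0.05 to 1.92), 0.10 in OVX mice (range -0.56 to 0.65) and 0.30 in OVX+CUMS mice (range -0.12 to 1.03). All 4 ranges overlapped, and the effect was -0.65 (SE 0.20, adjusted p = 0.0099). The Tet1 value with slide as a block was 0.15 and did not pass.

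The reader Mbd1, and Tet2 and Gadd45b, rose with ovariectomy in blood. Mbd1 A_55_P1971124 had a median of 1.23 in control mice (range 0.78 to 1.24), 0.68 in CUMS mice (range 0.33 to 1.13), 1.45 in OVX mice (range 1.32 to 1.58) and 1.07 in OVX+CUMS mice (range 0.89 to 1.42). The OVX mice lay above all control and all CUMS mice. Its effect was 0.33 (SE 0.09, adjusted p = 0.0037). Tet2 A_55_P2081303 rose by 0.37 (SE 0.13, adjusted p = 0.018). Its arrays averaged 0.80 in control mice, and 0.87 and 0.92 in OVX mice on slides 2 and 3. They averaged 0.16 and 0.18 in CUMS mice on slides 1 and 2, and 0.81 in OVX+CUMS mice. Gadd45b had a median of 0.49 in control mice (range 0.14 to 0.66), 0.24 in CUMS mice (range -0.07 to 0.86), 0.84 in OVX mice (range 0.76 to 1.13) and 0.55 in OVX+CUMS mice (range 0.25 to 1.23). The OVX mice lay above all control mice, and the effect was 0.37 (SE 0.11, adjusted p = 0.0073). With slide as a block the value was 0.32 (SE 0.25) for Gadd45b, 0.33 (SE 0.29) for Tet2 and 0.14 (SE 0.20) for Mbd1. The Mbd2 probe A_55_P2036526 rose by 0.22 (SE 0.07, adjusted p = 0.0145), while the other Mbd2 probe A_66_P133043 differed by 0.06 (SE 0.08) and did not pass. Dnmt1 (-0.24, 95% interval -0.47 to -0.02) and Dnmt3a (0.07, 95% interval -0.13 to 0.27) did not pass.

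**Figure D1:**
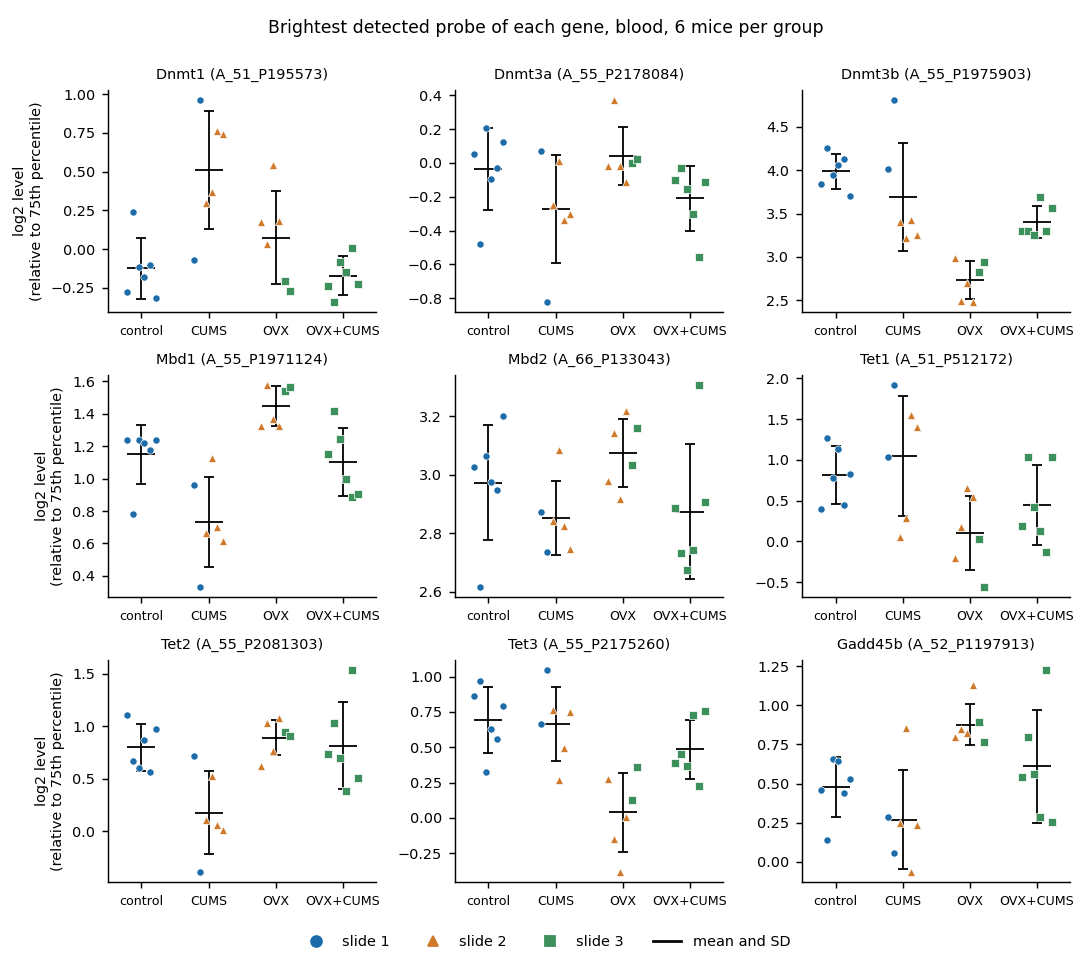
Log2 level relative to the array's 75th percentile in blood (vertical axis) for the brightest detected probe of each of the 9 genes, by group (horizontal axis), 6 mice per group. Each point is 1 mouse, its shape and colour give the slide, and the black bars give the mean and SD. The OVX mice span 2.48 to 2.99 for Dnmt3b, below all other mice, and 1.32 to 1.58 for Mbd1, above all control and CUMS mice.

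With stress, fewer of these probes moved in blood, and the ones that passed fell. The CUMS effect is the mean of the CUMS and OVX+CUMS mice minus that of the control and OVX mice. It passed for 4 of 15 probes, with none rising, where 48.5% of all detected probes passed, 19.1% higher and 29.4% lower. Mbd1 A_55_P1971124 fell by 0.38 (SE 0.09, adjusted p = 0.0026) and Tet2 A_55_P2081303 fell by 0.35 (SE 0.13, adjusted p = 0.027). Dnmt3b A_55_P2130535 fell by 0.39 (SE 0.11, adjusted p = 0.0099), and Dnmt3a fell by 0.24 (SE 0.10, adjusted p = 0.046). The Dnmt3b probe at the stop codon differed by 0.18 (95% interval -0.11 to 0.47) and did not pass. With slide as a block, Mbd1 (-0.48, adjusted p = 0.010) and Dnmt3b A_55_P2130535 (-0.52, adjusted p = 0.017) still passed. Dnmt3b A_55_P1975903 (0.47, adjusted p = 0.012) and Tet1 A_51_P512172 (0.69, adjusted p = 0.040) then rose, so the 4 calls split evenly by direction. In that fit 10303 of all 20748 detected probes passed, 4539 higher and 5764 lower. Aligned on the spike-in RNA, the median over all probes moved from -0.03 to -0.29, with 455 probes called higher and 7532 lower, and 7 of the 15 fell. The Dnmt3a call was lost in 18 of the 24 fits that left out 1 mouse. The Tet2 call was lost without control mouse 1 (adjusted p = 0.052), CUMS mouse 2 (0.053), OVX+CUMS mouse 4 (0.053) or OVX+CUMS mouse 6 (0.051).

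Tet2 in blood was lowest in the CUMS mice with probes A_55_P2081303 and A_55_P2051405, but not with A_55_P2074075. The arrays of A_55_P2074075 averaged -1.10 and -1.17 in CUMS mice on slides 1 and 2, and -1.19 in control mice. They averaged -1.27 and -1.55 in OVX mice on slides 2 and 3, and -1.33 in OVX+CUMS mice. Probe A_55_P2081303 had a median of 0.77 in control mice (range 0.56 to 1.10), 0.09 in CUMS mice (range -0.39 to 0.72), 0.92 in OVX mice (range 0.62 to 1.08) and 0.71 in OVX+CUMS mice (range 0.39 to 1.53). The CUMS mice were low, with some overlap with each group. CUMS mice differed from control mice by -0.62 (SE 0.18, adjusted p = 0.015), where 29.6% of all detected probes passed, and OVX mice from control mice by 0.09 (SE 0.18, adjusted p = 0.71). The interaction for this probe was 0.55 (SE 0.25, adjusted p = 0.26) and did not pass.

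Dnmt1 was the only probe of the 15 whose interaction passed in blood, where 1.42% of all detected probes passed (1.29% with a positive and 0.13% with a negative interaction) and 5 of the 15 had an unadjusted p under the threshold. Its median was -0.15 in control mice (range -0.31 to 0.24), 0.55 in CUMS mice (range -0.07 to 0.96), 0.10 in OVX mice (range -0.27 to 0.54) and -0.19 in OVX+CUMS mice (range -0.34 to 0.0083). The CUMS mice were high, with an overlap with each other group. CUMS mice exceeded control mice by 0.63 (SE 0.15, adjusted p = 0.0076), and OVX+CUMS mice differed from OVX mice by -0.25 (SE 0.15, adjusted p = 0.23). The interaction was -0.88 (SE 0.22, adjusted p = 0.047), and it no longer passed in 19 of the 24 fits that left out 1 mouse. It was -0.50 (SE 0.29) with slide as a block and -0.56 (SE 0.26) with the spike-in alignment, and passed with neither. Without the detection filter, without moderation of the spread or with the replicate block, the call was lost as well, so it passed under 4 of the 9 alternatives. The spike-in alignment called the interaction of Dnmt3b A_55_P1975903 instead (1.29, SE 0.30, adjusted p = 0.017). For OVX+CUMS against control mice, limma called none of the 15 probes, 3 had an unadjusted p under the threshold, and 6.26% of all detected probes passed, 4.08% higher and 2.18% lower.

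Within a slide, the only comparison in blood with calls was the 4 CUMS against the 4 OVX arrays of slide 2, where 52.2% of all detected probes passed. Here 8 of 15 probes passed. Dnmt3b A_55_P1975903 was 0.66 higher in CUMS mice (SE 0.14, adjusted p = 0.0092) and Tet3 A_55_P2175260 was 0.63 higher (SE 0.18, adjusted p = 0.017). Mbd1 differed by -0.62 (SE 0.15), Tet2 A_55_P2081303 by -0.70 (SE 0.16) and Gadd45b by -0.58 (SE 0.19). On slide 1 (CUMS against control) and slide 3 (OVX+CUMS against OVX), no probe of any gene passed in either tissue. There, Dnmt3b A_55_P1975903 differed by 0.43 (SE 0.23) between 2 CUMS and 6 control arrays of blood, and by 0.52 (SE 0.16, unadjusted p = 0.0083 from limma's fit) between 6 OVX+CUMS and 2 OVX arrays.

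Cell type markers moved in blood with the same groups. Of all detected probes, 27.4% rose and 27.7% fell with ovariectomy, and 19.1% rose and 29.4% fell with CUMS. Of the 8 erythroid marker genes, 7 were detected, 6 of which rose with CUMS and 6 of which fell with ovariectomy. Their mean level, centred over the blood arrays, ran from 0.22 to 1.25 in the CUMS group and from -0.95 to 0.20 in the OVX group, with control mice at -0.44 to 0.82 and OVX+CUMS mice at -0.36 to 0.51. Of the 7 B cell markers, all detected, 6 fell with CUMS and 4 rose with ovariectomy, and their mean level ranged from -0.83 to -0.05 in CUMS mice and from 0.35 to 0.51 in OVX mice. In OVX+CUMS mice the B cell level ranged from -0.93 to 0.29, and in control mice from -0.27 to 0.14. Of 7 T cell markers 3 fell with CUMS and 2 with ovariectomy, of 8 detected neutrophil markers 1 rose with CUMS, of 6 platelet markers 1 fell with ovariectomy, and of 6 monocyte markers 1 rose with ovariectomy and 1 fell with CUMS. Of 5 detected NK cell markers, 2 fell with each treatment. The part of these markers in the values of the 15 probes was not tested.

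Probes of 1 gene did not always move together in blood. Dnmt3b A_55_P1975903 fell with ovariectomy and so did A_55_P2008874, by 0.35 (SE 0.11, adjusted p = 0.0115), but A_55_P2130535, the furthest downstream, rose by 0.33 (SE 0.11, adjusted p = 0.019). Over 9 alternatives of processing and fit, the value ran from -0.35 to -0.03 for A_55_P2008874 and from 0.07 to 0.48 for A_55_P2130535. Each passed in 7 of them. Across the 24 blood arrays, which share groups and slides, the levels of A_55_P1975903 correlated with those of A_55_P2008874 at r = 0.72 and with those of A_55_P2130535 at r = -0.58. Tet1 A_55_P2122997 rose by 0.44 (SE 0.15, adjusted p = 0.0205), where A_51_P512172 fell. The median intensity of A_55_P2122997 was 18.5 to 41.4 in the 4 groups of blood arrays, and under normexp background correction its change was 0.01. Tet2 A_55_P2051405 rose by 0.32 (SE 0.12, adjusted p = 0.028) like A_55_P2081303, and their levels correlated at r = 0.87, but its change was 0.04 under normexp. That call was lost without control mouse 5 (adjusted p = 0.050), CUMS mouse 6 (0.054) or OVX+CUMS mouse 2 (0.053). The third Tet2 probe, A_55_P2074075, which the array assigns to a different transcript, differed by -0.18 (SE 0.09) and did not pass, and correlated with the others at r = -0.59 and -0.47.

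**Figure D2:**
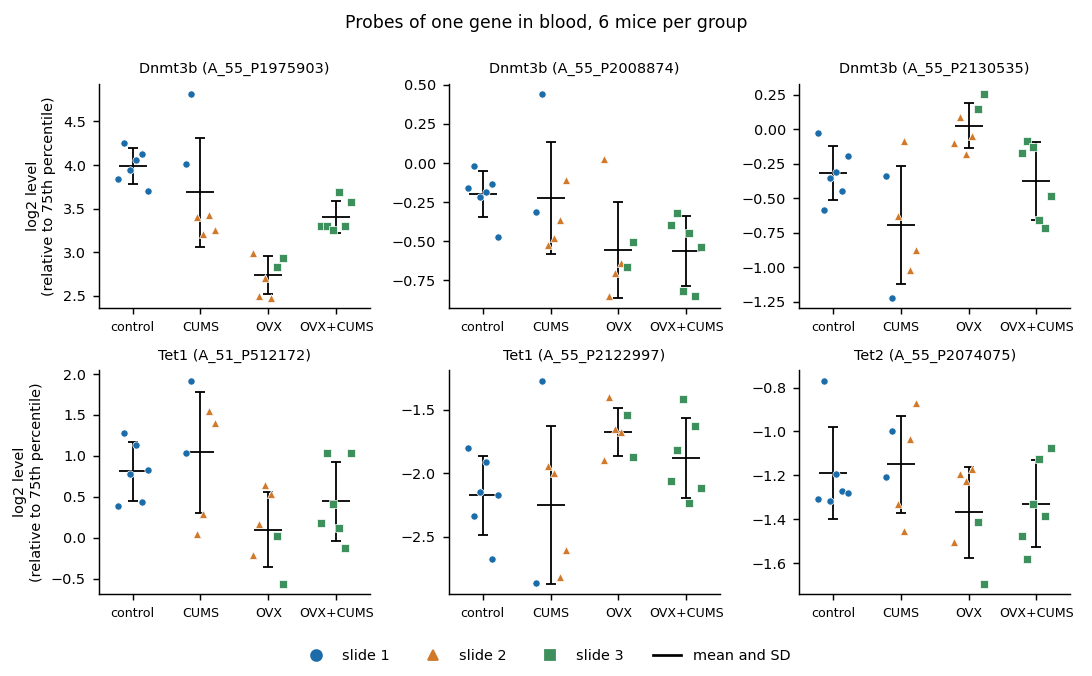
Log2 level relative to the array's 75th percentile in blood (vertical axis) for 3 Dnmt3b probes, 2 Tet1 probes and the third Tet2 probe, by group, 6 mice per group. Points are mice, shape and colour give the slide, and black bars give the mean and SD. The OVX group has the lowest mean of the 4 groups for Dnmt3b A_55_P1975903 and the highest for A_55_P2130535, where its mice span -0.18 to 0.25.

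In mPFC, far fewer of the probes moved. Ovariectomy passed for 3 of 15 probes, 2 higher and 1 lower, where 30.9% of the 28353 detected probes passed, 19.1% higher and 11.7% lower. The CUMS effect passed for 1 probe, upward, where 4.2% of all passed, 2.33% higher and 1.87% lower. OVX+CUMS against control passed for the same 3 probes as ovariectomy, 2 higher and 1 lower, where 33.4% of all passed, 20.4% higher and 13% lower. The genes were Dnmt1, Mbd2 and Tet3. The direction of the calls turned with the spike-in alignment, under which ovariectomy passed for 0 probes upward and 3 downward, CUMS for 0 and 2, and OVX+CUMS against control for 0 and 5. Over the 15 probes the median difference was -0.03 for ovariectomy and 0.03 for CUMS, beside 0.04 and 0.01 over all detected probes. Aligned on the spike-in RNA, the all-probe medians were -0.07 for ovariectomy, -0.12 for CUMS and -0.19 for OVX+CUMS against control. For ovariectomy, 178 of the 28353 probes were then called higher and 5038 lower. The counts were 53 and 5988 for CUMS, and 123 and 9768 for OVX+CUMS against control.

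Dnmt1 in mPFC rose with each treatment. Its lowest, median and highest levels were -0.33, -0.24 and -0.18 in control mice and -0.19, -0.04 and 0.06 in CUMS mice. They were -0.02, 0.03 and 0.09 in OVX mice and 0.03, 0.11 and 0.36 in OVX+CUMS mice. Every ovariectomized mouse lay above every control mouse. The effect of ovariectomy was 0.25 (SE 0.04, adjusted p = 0.00011), that of CUMS was 0.16 (SE 0.04, adjusted p = 0.029) and OVX+CUMS mice exceeded control mice by 0.41 (SE 0.05, adjusted p = 2.2e-05). These levels also followed the slides: the CUMS arrays averaged -0.16 on slide 1 and -0.0020 on slide 2, beside -0.25 for the control arrays of slide 1 and 0.01 for the OVX arrays of slide 2. The values with slide as a block were 0.10 for ovariectomy and 0.09 for CUMS, and neither passed. They were 0.13 and 0.03 with the spike-in alignment, and again neither passed. The CUMS call was also lost in 6 of the 24 fits that left out 1 mouse.

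Tet3 in mPFC had a lower median in every treated group than in control mice. Its probe A_55_P2175260 had a median of -0.71 in control mice (range -0.80 to -0.49), -1.29 in CUMS mice (range -1.41 to -0.58), -1.26 in OVX mice (range -1.36 to -0.99) and -1.12 in OVX+CUMS mice (range -1.17 to -1.03). Control mice lay above all ovariectomized mice and overlapped the CUMS mice. The effect of ovariectomy was -0.27 (SE 0.08, adjusted p = 0.012). OVX+CUMS against control gave -0.43 (SE 0.11, adjusted p = 0.0045), and the interaction was 0.56 (SE 0.16, adjusted p = 0.046), the only one of the 15 to pass where 4.47% of all did (3.35% positive and 1.12% negative). The CUMS arrays split by slide: those on slide 1 averaged -0.69, close to the -0.68 of the control arrays there, and those on slide 2 averaged -1.33, close to the -1.30 of the OVX arrays there. Within slides the differences were -0.01 (SE 0.10) on slide 1, -0.04 (SE 0.06) on slide 2 and -0.03 (SE 0.08) on slide 3. The comparison on slide 2, the only one of the 3 in mPFC with calls, was passed by 0.0423% of all detected probes and by none of the 15. Fitted with slide as a block, ovariectomy gave 0.020 and the interaction -0.012. The interaction was also lost in 20 of the 24 fits that left out 1 mouse.

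Mbd2 A_55_P2036526 in mPFC rose by 0.12 with ovariectomy (SE 0.04, adjusted p = 0.017) and by 0.17 in OVX+CUMS against control mice (SE 0.05, adjusted p = 0.020). The second call was lost without control mouse 2 (0.14, adjusted p = 0.057). Its CUMS arrays averaged -0.03 on slide 1 and 0.19 on slide 2, and the ovariectomy value with slide as a block was -0.013. The values with the spike-in alignment were 0.0095 for ovariectomy and -0.077 for OVX+CUMS against control, and neither passed. The other Mbd2 probe, A_66_P133043, differed by 0.11 (SE 0.05, adjusted p = 0.085).

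**Figure D3:**
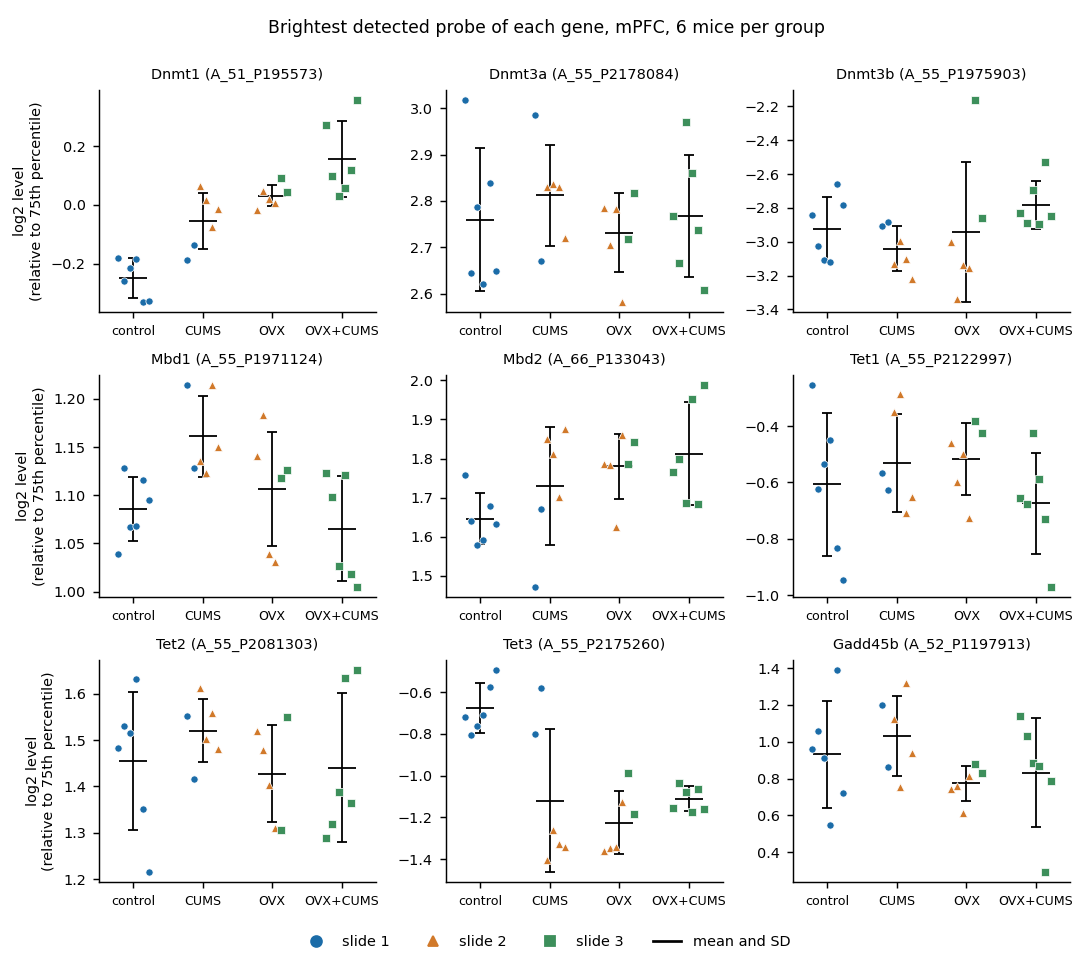
Log2 level relative to the array's 75th percentile in mPFC (vertical axis, a different range in each panel) for the brightest detected probe of each gene, by group, 6 mice per group. Points are mice, shape and colour give the slide, and black bars give the mean and SD. For Tet3 the 2 CUMS arrays on slide 1 lie with the control arrays and the 4 on slide 2 with the OVX arrays.

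Of the cell type markers in mPFC, 5 of 6 microglial genes rose with ovariectomy and 4 of 6 in OVX+CUMS against control mice. Of all detected probes, 19.1% and 20.4% were higher and 11.7% and 13% lower in these comparisons. None of the 6 astrocyte markers passed for either. With ovariectomy 1 of 8 neuronal markers rose, 1 of 6 oligodendrocyte markers rose and 1 of 6 endothelial markers fell. With CUMS 1 neuronal marker rose. In OVX+CUMS against control mice, 2 neuronal markers were higher and 1 lower, 1 oligodendrocyte marker was lower, and 1 endothelial marker was higher and 1 lower. No probe of any gene passed for these effects in mPFC with slide as a block. The part of the markers in the values of Dnmt1, Tet3 and Mbd2 was not tested.

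The other genes did not pass in mPFC in the fit over all mice without slide. Their intervals hold for that fit and its alignment alone, so they do not bound a change. Over the 9 alternatives of processing and fit, the ovariectomy value ran from -0.15 to -0.04 for Mbd1 and from -0.29 to -0.12 for Gadd45b. Each passed in 1 of them. Dnmt3a (-0.15 to -0.03) and Tet2 A_55_P2081303 (-0.17 to -0.04) passed in none. Intervals for Dnmt3b and Tet1 are not given. For Dnmt3a, the level was 2.76 ± 0.15 in control, 2.81 ± 0.11 in CUMS, 2.73 ± 0.09 in OVX and 2.77 ± 0.13 in OVX+CUMS mice (SD, n = 6 each). Its 95% interval was -0.14 to 0.07 for ovariectomy and -0.06 to 0.15 for CUMS. The interval for Mbd1 was -0.09 to 0.02 for ovariectomy and -0.04 to 0.07 for CUMS. For Tet2 A_55_P2081303 it was -0.16 to 0.05 and -0.07 to 0.15. Gadd45b had wider intervals, -0.37 to 0.01 for ovariectomy and -0.11 to 0.27 for CUMS. Its median level was 0.94 in control mice (range 0.55 to 1.39), 1.03 in CUMS mice (range 0.75 to 1.32), 0.79 in OVX mice (range 0.61 to 0.88) and 0.87 in OVX+CUMS mice (range 0.29 to 1.14), with all groups overlapping.

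The difference of an effect between the tissues was tested within mice. The ovariectomy effect differed for 7 of 13 probes, where 37.3% of all probes detected in both tissues passed, 18.1% more positive in blood and 19.1% more negative. It was more negative in blood for Dnmt3b A_55_P1975903 (difference -0.89, SE 0.15, adjusted p = 0.00017), Tet1 A_51_P512172 and Dnmt1 (-0.49, SE 0.12, adjusted p = 0.0031). It was more positive in blood for Mbd1 (0.37, SE 0.09, adjusted p = 0.0028), Gadd45b (0.55, SE 0.17, adjusted p = 0.014), Tet1 A_55_P2122997 and Tet2 A_55_P2081303. After the spike-in alignment, 7 probes passed, 6 more positive in blood and 1 more negative, beside 4646 and 645 of all 17529. Dnmt1 (-0.22) and Tet1 A_51_P512172 (-0.31) no longer passed. The Tet2 difference of 0.42 was 0.37 without CUMS mouse 2 (adjusted p = 0.052). The CUMS effect differed for 6 of 13, where 50.4% of all passed, 18.6% more positive in blood and 31.8% more negative. It was more negative in blood for Mbd1 (-0.40, SE 0.09, adjusted p = 0.0021), Tet2, Dnmt3a, Dnmt3b A_55_P2130535 and Mbd2 A_66_P133043, and more positive for Tet3 (0.37, SE 0.11, adjusted p = 0.0094). Of the 24 fits that left out 1 mouse, 19 lost the Mbd2 call, 13 that of Dnmt3b A_55_P2130535 and 6 that of Tet2. None of these 6 passed when the arrays were aligned on the spike-in RNA, where 1065 of all 17529 probes did.

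**Figure D4:**
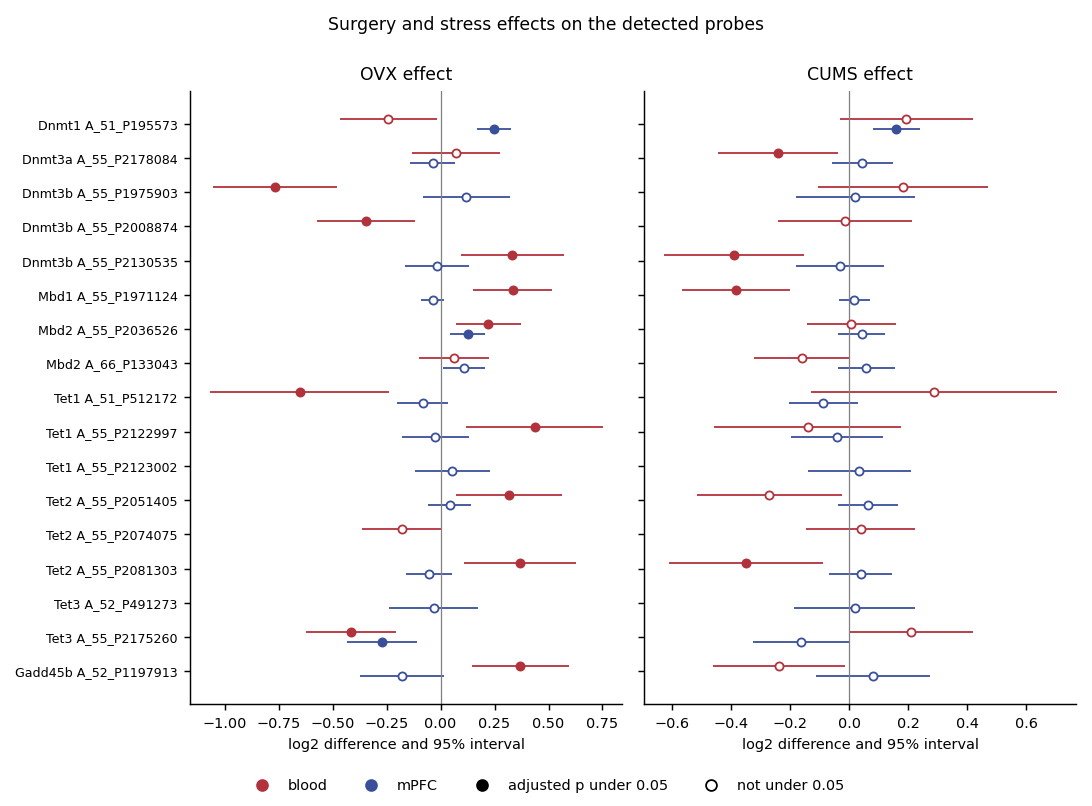
Log2 difference (horizontal axis) with its 95% interval for each detected probe (vertical axis) under ovariectomy (left) and CUMS (right), in blood (red) and mPFC (blue), from the fit over 24 mice per tissue. Filled points passed an adjusted p of 0.05. For each probe detected in both tissues the interval is wider in blood, and Dnmt3b A_55_P1975903 has the lowest value, -0.77, under ovariectomy in blood.

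The wider machinery was followed in 34 further genes: partners of the writers, other readers, other genes of demethylation and repair, and enzymes that supply methyl donors or TET cofactors. In blood, 24 of them were detected, of which 11 rose and 5 fell with ovariectomy, and 2 rose and 9 fell with CUMS. The called shares, over the brightest detected probe of each gene, were 66.7% and 45.8%. They stand beside the 55.1% and 48.5% given above, which are over every detected probe and so not like for like. The medians were 0.17 and -0.14, beside 0.04 and -0.03 over all detected probes. Among the rises with ovariectomy were Cxxc5 (0.53), a CXXC zinc finger gene, and the cytidine deaminase Apobec1 (0.46). The largest falls were Zfp57 (-0.88), which guards imprints, Mbd5 (-0.82) and the cytidine deaminase Apobec3 (-0.64). With CUMS, Gadd45a (0.56) and the methionine synthase Mtr (0.21) rose, and Cxxc5 (-0.56) and Zbtb4 (-0.45) were among those that fell.

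In mPFC, 31 of the 34 were detected, of which 4 rose and 3 fell with ovariectomy, and 1 rose and 1 fell with CUMS. The called shares, again over the brightest detected probe of each gene, were 22.6% and 6.45%, beside 30.9% and 4.2% of every detected probe. The medians were 0.02 and 0.03, beside 0.04 and 0.01 over all detected probes. With ovariectomy Mbd3 (0.27), Gadd45gip1 (0.26) and Dmap1 (0.14) rose most, and Apobec3 (-0.59), Zfp57 (-0.36) and Mtr (-0.23) fell. With CUMS Mbd3 rose by 0.15 and Apobec3 fell by 0.34. OVX+CUMS mice differed from control mice for 6 upward and 3 downward (29%, beside 33.4% of all), led by Mbd3 (0.42) and Apobec3 (-0.94). No probe of any gene passed for any of these effects in mPFC with slide as a block.

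The probes whose levels ran closest to a gene over the 24 arrays of a tissue are named for some of the genes, as a description of arrays that share groups and slides. Gadd45b in mPFC ran with Baz1a (r = 0.80), Crem (r = 0.77) and Bdnf (r = 0.75). Crem is a cAMP-responsive transcription factor and Bdnf a neurotrophin. Immediate early genes in mPFC had a mean level, centred over the arrays, of -0.14 in control, 0.29 in CUMS, -0.23 in OVX and 0.08 in OVX+CUMS mice. Of the 12 genes Arc (0.88) and Nr4a1 (0.51) rose with CUMS, where 2.33% of all detected probes were called higher. In blood, Gadd45b ran with Pbxip1, Map3k5 and Pik3cg (r = 0.91 each), and Mbd1 with Mbtps1, Btaf1 and Kdm2b (r = 0.97 to 0.98). Tet2 in blood ran with Ube2v2, Cdk13 and Usp3 (r = 0.94 to 0.95). Among the 3 closest to Tet3 in mPFC was Nrap (r = 0.97).

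Of the 19 probes, 6 missed detection in at least 1 tissue. In blood these were Mbd1 A_55_P2111649 (well above background on 20 of 24 arrays), Tet1 A_55_P2123002 (3 of 24) and Tet3 A_51_P199339 (6 of 24), and Tet3 A_52_P491273, which was above background on all 24 but did not exceed an intensity of 50 on 2. In mPFC they were Dnmt3b A_55_P2008874 (23 of 24), Tet2 A_55_P2074075 (22 of 24), Tet3 A_51_P199339 (23 of 24) and Mbd1 A_55_P2111649, which had 1 array left out for an outlier mark and was above background on the other 23. In those tissues these probes entered a test only in the fit without the detection filter, and their values are not given.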

How the data were processed

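Blood and mPFC RNA of 24 mice was hybridised to 48 Agilent 1-colour mouse arrays. Human samples were not used here. The deposited scanner files give the processed intensity of each spot, which the authors obtained with Agilent's Feature Extraction, and other columns with the mean and background intensity and quality marks. The series table that was deposited holds the authors' normalized log2 values: 100% of 55249 single-spot probes lay within 0.001 of the values computed here up to a constant per array.

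Spots marked as outliers (98 to 206 an array) were left out, 0 were saturated, replicate spots were averaged, and log2 intensity minus the array's 75th percentile was used. The number of arrays limits the precision. Probes detected in a tissue were fitted with limma 3.58.1 (R 4.3.3), 1 mean per group, and p-values were adjusted by Benjamini-Hochberg over all detected probes at 0.05, two-sided. Tissues were compared by the difference within each mouse, as the labels tie both arrays to 1 mouse. The alternatives tried were alignment on the spike-in probes, the percentile over detected probes, quantile normalization, normexp background correction (offset 50), the authors' values, no detection filter, no moderation of the spread, slide or replicate number as a block, and leaving out each mouse. On simulated data with 200 changed probes, 93% of log2 changes of 1 were recovered for ovariectomy in blood and 98% in mPFC. The largest ovariectomy effect on a probe of the gene set was -0.77, for Dnmt3b A_55_P1975903 in blood. Recovery of changes smaller than 1 was not tested, so these rates do not bear on effects of that size.

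All probes of the 9 genes are reported, each gene led by its brightest detected probe. Genes of the wider lists and of the marker lists were each counted by their brightest detected probe alone. Of the wider lists, at most the 3 largest rises and 3 largest falls that passed are named. The members and lists were chosen with earlier results of these data known.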

Additional observations from a re-analysis of the deposited data

Results flagged for a closer look

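Of 120 groups of 6 mice tested for a value far from the other 5, 9 stood out (7.5%), where chance alone marks about 1 in 20 (5%). In blood these were Dnmt3a in OVX mouse 2 (0.37, the nearest at 0.02), Mbd1 A_55_P1971124 in control mouse 2 (0.78, nearest 1.17) and Tet2 A_55_P2074075 in the same mouse (-0.77, nearest -1.19). OVX+CUMS mouse 5 was high for both Mbd2 probes, at 2.15 for A_55_P2036526 (nearest 1.86) and 3.31 for A_66_P133043 (nearest 2.91), and OVX mouse 4 was high for Gadd45b (1.13, nearest 0.90). The level of the neutrophil markers, centred over the blood arrays, was 3.22 in OVX+CUMS mouse 5, and its part in the Mbd2 values was not tested. In mPFC they were Mbd2 A_66_P133043 in OVX mouse 3 (1.62, nearest 1.78), Tet1 A_51_P512172 in CUMS mouse 6 (-2.16, nearest -2.07) and Tet3 A_52_P491273 in OVX mouse 4 (-3.02, nearest -3.47).

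The effect of stress differed between sham-operated and ovariectomized mice for Dnmt1 in blood (interaction -0.88) and for Tet3 A_55_P2175260 in mPFC (0.56). With slide as a block these were -0.50 and -0.012 and neither passed, and leaving out 1 mouse ended the calls in 19 and 20 of 24 fits. The effect of ovariectomy differed between blood and mPFC for Dnmt3b A_55_P1975903 (-0.89), Tet1 A_51_P512172 (-0.57), Dnmt1 (-0.49), Mbd1 A_55_P1971124 (0.37), Tet2 A_55_P2081303 (0.42), Tet1 A_55_P2122997 (0.46) and Gadd45b (0.55). The effect of CUMS differed between the tissues for Mbd1 A_55_P1971124 (-0.40), Tet2 A_55_P2081303 (-0.39), Dnmt3b A_55_P2130535 (-0.36), Dnmt3a (-0.29), Mbd2 A_66_P133043 (-0.22) and Tet3 A_55_P2175260 (0.37). Each of these was tested as a difference in limma's fit, and blood and mPFC lay on separate slides.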

How the results depend on the processing

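Of the 48 calls on the 9 genes, 40 were kept with normexp, 47 with quantile normalization, 43 with the percentile over detected probes, 48 with the authors' values, 36 without the detection filter, 46 without moderation and 26 with alignment on the spike-in RNA. The fit with slide as a block kept 2 of 24. Counts of calls that moved by over 1.5 times were as follows. With normexp, CUMS and the interaction in blood gave 2 each. The spike-in alignment gave in blood 6 for ovariectomy and 7 for CUMS, in mPFC 2 for CUMS, 0 for the interaction and 5 for OVX+CUMS against control, and the CUMS effect differed between tissues for 0. Without the detection filter, blood gave 2 for CUMS and 0 for the interaction, mPFC gave 0 for both, and blood and mPFC differed for 17 of 19 probes tested (11 of 13 with the filter), with the CUMS effect differing for 2 of 19. Without moderation, the interactions gave 0 in each tissue. Slide as a block left ovariectomy and the interaction with 0 in blood, and all 4 effects with 0 in mPFC. The cause was not tested.

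Values that turned with slide as a block were ovariectomy for Tet1 A_51_P512172 in blood (0.15), and in mPFC for Mbd2 A_55_P2036526 (-0.013) and Tet3 A_55_P2175260 (0.020), OVX+CUMS against control in mPFC for Mbd2 (-0.038) and Tet3 (0.00056), and the Tet3 interaction in mPFC (-0.012). Aligned on the spike-in RNA, Mbd2 A_55_P2036526 turned for OVX+CUMS against control in mPFC (-0.077), and blood minus mPFC turned for Dnmt1 (-1.28), Mbd1 A_55_P1971124 (-1.38) and Mbd2 A_66_P133043 (-0.18). With normexp, Mbd1 turned to -0.28.

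Leaving out 1 mouse at a time kept 37 of the 48 calls in all 24 fits. The counts ranged in blood from 10 to 12 for ovariectomy, 2 to 8 for CUMS, 0 to 3 for the interaction and 0 to 1 for OVX+CUMS against control, and in mPFC were 3 for ovariectomy, 0 to 2 for CUMS, 0 to 1 for the interaction and 2 to 4 for OVX+CUMS against control. They were 11 to 12 for blood minus mPFC, 6 to 9 for the difference of the ovariectomy effect and 3 to 9 for that of the CUMS effect. For CUMS in blood, the count was 2 without control mouse 1, CUMS mouse 2 or OVX+CUMS mouse 4 or 6, 7 without control mouse 2 and 8 without CUMS mouse 4.

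Replicate numbers in the labels name mice and do not pair groups: same-number correlations ran from -0.51 to 0.49 in blood and -0.23 to 0.39 in mPFC. With the replicate block, 21 of 24 calls were kept, and the interaction gave 0 calls in blood and 0 in mPFC. Without pairing arrays by mouse, the 24 tissue calls were kept.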
